A study of Homo sapiens with 3 samples.

Results

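Matrix metalloproteinases were followed in the pancreatic cancer cell line PANC-1, of human origin, with cantharidin or okadaic acid added to the culture. The genes considered were MMP1, MMP2, MMP3, MMP7, MMP9, MMP10, MMP13, MMP14, MMP15 and MMP24, which made up 10 of the 19699 genes that could be named on the arrays. They were taken by matching the RefSeq transcript of each probe to a gene symbol, and each of the 10 genes was represented by 1 probe. Cy3-labelled total RNA was read on Agilent arrays, on which the brightness of a probe measures its transcript. There was 1 array of untreated control cells, 1 array of cells given 20 µM cantharidin and 1 array of cells given 20 µM okadaic acid, as the label of each array states, with 24 h of treatment. The treatment protocol gives this dose a single time for the pair of compounds, so its wording does not settle whether it applied to okadaic acid. No vehicle for the control cells is named in the labels. Both compounds inhibit protein phosphatase 2A (PP2A), which the study wished to connect with the expression of genes for angiogenesis. Since each group had a single array, nothing could be tested and replicates could not be compared. Counts at a threshold of 1.5-fold therefore describe these 3 arrays.

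Matrix metalloproteinases are zinc-dependent enzymes that cleave collagens and other proteins of the extracellular matrix. They are made as inactive precursors, are opened by other proteases and are blocked by the tissue inhibitors of metalloproteinases (TIMPs). The collagenases MMP1 and MMP13 cut fibrillar collagen, the stromelysins MMP3 and MMP10 and the matrilysin MMP7 have broader substrates, and the gelatinases MMP2 and MMP9 degrade denatured collagen and basement membrane. MMP14, MMP15 and MMP24 are membrane-type enzymes that are held at the cell surface. In many cells, transcription of several secreted members is inducible by AP-1, ETS and NF-κB factors, and members of the family are studied in pancreatic cancer for their part in invasion.

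Promoter letters are given first, to set MMP10, the only member at least 1.5-fold higher whose promoter was matched, beside members that were lower. RefSeq promoters of GRCh38.p14 were matched for 5 of the 10 members, and the 250 bases before the transcription start are printed 5′ to 3′ for MMP10, which was higher under both agents, MMP7, from the same row of genes on chromosome 11, and MMP15 and MMP24, which were lower under at least 1 agent. Capitals mark matches, on either strand, to the AP-1 motif TGAGTCA. They also mark the TATA box motif, searched as TATAAA. The ETS motif was searched as AGGAAG. The GC box, a motif of the Sp1 family, was searched as GGGCGG. No matches overlapped. The remaining members MMP1, MMP2, MMP3, MMP9 and MMP13 were not matched.
MMP10 (GRCh38.p14, chr11:102780629-102780878, minus strand): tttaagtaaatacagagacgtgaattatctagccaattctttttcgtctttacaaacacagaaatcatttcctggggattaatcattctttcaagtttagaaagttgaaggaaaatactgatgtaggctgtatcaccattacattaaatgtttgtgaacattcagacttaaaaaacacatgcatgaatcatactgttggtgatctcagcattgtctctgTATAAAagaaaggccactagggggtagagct
MMP7 (GRCh38.p14, chr11:102530748-102530997, minus strand): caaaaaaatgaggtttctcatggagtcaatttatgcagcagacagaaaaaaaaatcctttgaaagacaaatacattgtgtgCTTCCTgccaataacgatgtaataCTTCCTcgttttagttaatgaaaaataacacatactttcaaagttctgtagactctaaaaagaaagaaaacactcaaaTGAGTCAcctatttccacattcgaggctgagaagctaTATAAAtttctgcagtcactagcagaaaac
MMP15 (GRCh38.p14, chr16:58025504-58025753, plus strand): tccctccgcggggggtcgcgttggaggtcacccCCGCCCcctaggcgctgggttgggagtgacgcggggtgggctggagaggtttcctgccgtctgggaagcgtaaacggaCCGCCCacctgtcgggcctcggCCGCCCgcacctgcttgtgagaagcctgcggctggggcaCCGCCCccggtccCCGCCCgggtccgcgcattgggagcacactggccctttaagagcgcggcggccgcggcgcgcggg
MMP24 (GRCh38.p14, chr20:35226440-35226689, plus strand): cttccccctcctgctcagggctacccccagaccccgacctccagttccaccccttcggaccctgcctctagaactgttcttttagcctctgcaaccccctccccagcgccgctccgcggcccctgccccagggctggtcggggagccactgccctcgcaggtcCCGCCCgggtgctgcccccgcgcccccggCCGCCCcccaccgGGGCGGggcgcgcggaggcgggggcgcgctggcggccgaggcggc

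The secreted members on chromosome 11 with a matched promoter, MMP10 and MMP7, had AT-rich sequence here, with a GC content of 34.4% and 33.6%, respectively. Each held 1 TATAAA, which began 31 bases before the start in MMP10 and 30 bases before it in MMP7. MMP7 also had 1 TGAGTCA, beginning 67 bases upstream, and 2 matches to AGGAAG, whereas MMP10 had no exact match to either motif in this window. Only exact letters were searched. Sequences that differ by 1 base, such as the TGAATCA in the MMP10 window printed above, were therefore not marked or counted. The membrane-type members were GC-rich, with 74.8% for MMP15 and 77.6% for MMP24, and held 5 and 3 GC boxes, respectively. MMP14 had a GC content of 56.8% and 1 GC box. Among 35116 promoter windows of the same length, TGAGTCA was found in 4.2%, TATAAA in 10.7%, AGGAAG in 28.7% and GGGCGG in 42.6%. These matches describe letters and are not binding sites.

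The floor of an array, that is the dimmest signal flagged as well above background, was an intensity of 35.0 in control, 21.9 in cantharidin and 58.0 in okadaic acid cells. Among the 10 members, 7 were well above background in control cells, 8 under cantharidin and 9 under okadaic acid. MMP3, MMP10 and MMP13 were not well above background in control cells, MMP7 and MMP13 were not under cantharidin, and MMP7 was not under okadaic acid. No transcript spot was saturated. Markers of several cell types were also read, although their detection cannot identify the line. All 6 epithelial markers were well above background in control cells, among them KRT8, KRT18 and KRT19, although CDH1 was not under either agent. All 3 mesenchymal markers, VIM, CDH2 and ZEB1, were well above background on each array by their brightest probes. VIM was brighter in control cells than any epithelial marker, with 311685 against 70664 for KRT18. Of 5 fibroblast markers, 3, 4 and 3 were well above background in control, cantharidin and okadaic acid cells, without LUM in any of them. On their brightest probes, 2 of 4 endothelial markers were well above background on each array, PECAM1 and CLDN5 on none, although another probe of PECAM1 was so in control cells with an intensity of 45.0. The arrays also measured all 5 leukocyte markers, including PTPRC. The summed intensity of the leukocyte markers was 6258 in control, 6440 in cantharidin and 24788 in okadaic acid cells. That of the fibroblast markers was 641, 721 and 1051, and that of the endothelial markers 2269, 1321 and 1602. These sums are of intensities as measured, without scaling between arrays. On each array, CD68 and CD14 made up most of the leukocyte sum. CD68 had 2945 in control, 3895 in cantharidin and 12731 in okadaic acid cells, and CD14 had 2535, 1838 and 11044. The labels name only PANC-1 cells, and the part of other cells in the values below was not tested.

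**Figure D1:**
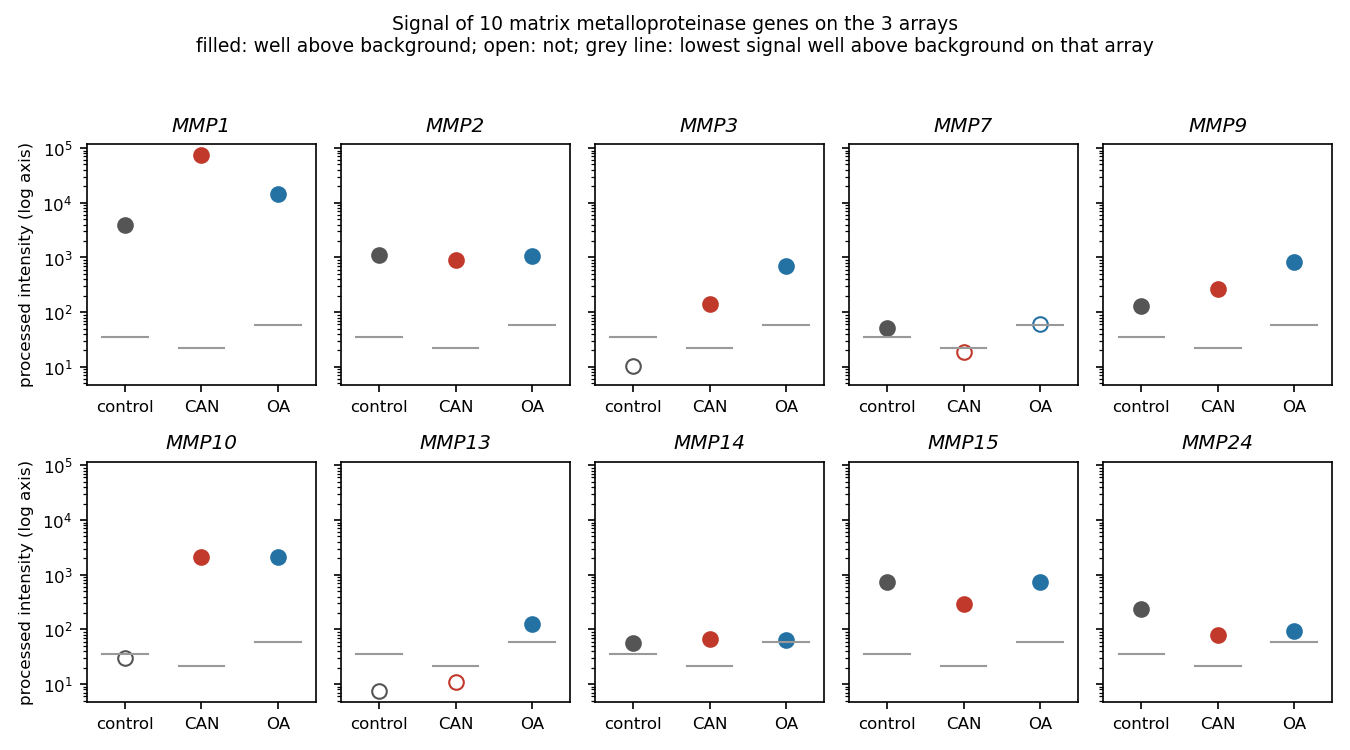
Processed intensity (log axis) of the probe of each of the 10 members on the control, cantharidin (CAN) and okadaic acid (OA) arrays, with filled points for signals well above background, open points for signals that were not, and a grey line at the floor of each array. MMP1, MMP3, MMP9 and MMP10 lay higher on both treated arrays than on the control array, and MMP24 lay lower on both.

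Against control, cantharidin gave higher signals for the collagenase MMP1, the stromelysins MMP3 and MMP10 and the gelatinase MMP9, and lower signals for MMP7, MMP15 and MMP24. Of 9 members that could be compared, 4 were higher by 1.5-fold or more and 3 lower, while 27.5% of 16644 genes were higher and 34.1% lower by this rule. Under okadaic acid all 10 members could be compared, with 5 at least 1.5-fold higher (MMP1, MMP3, MMP9, MMP10 and MMP13) and 1 at least 1.5-fold lower (MMP24), against 28.1% of 16166 genes higher and 28.8% lower. The members had a median log2 difference of 0.35 with cantharidin and 0.80 with okadaic acid, against -0.16 and 0.01 over all genes compared. MMP3, MMP10 and MMP13 could be compared with control only through the treated arrays on which they were high. Restricted to the 6 members well above background on all 3 arrays, the medians were 0.07 and -0.15, against -0.17 and 0.04 over 14222 such genes. Of these members, 2 were at least 1.5-fold higher in each case, while 2 were lower under cantharidin and 1 under okadaic acid. The shares over all genes given above were counted without this restriction. The control array is shared by these comparisons. The intensities below are as measured, and every difference is a log2 value from arrays scaled to their 75th percentiles, so folds do not equal the ratio of the intensities. The value after ± is the SD of that difference that spot noise gives, taken from probes with 10 spots of like brightness on these arrays. It covers spot noise only, not variation between cultures.

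MMP1, the interstitial collagenase, was bright on every array, with an intensity of 3867 in control, 73186 in cantharidin and 14193 in okadaic acid cells. It was highest under cantharidin, where the signal was 20.8-fold above control (log2 difference 4.38 ± 0.03). With okadaic acid it was 3.08-fold above control (1.62 ± 0.02). Among 14900 genes measured on both arrays, the difference of MMP1 under cantharidin ranked at position 69 from the highest, whereas that under okadaic acid ranked at position 1396 of 14428.

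The probe of MMP1 had 10 spots on each array, which allows its spot noise to be seen directly. Control spots ran from 3735 to 4009 with a median of 3865, cantharidin spots from 66947 to 78082 with a median of 73338, and okadaic acid spots from 13515 to 15064 with a median of 14115. No spot of one array overlapped those of another, and the coefficient of variation over spots was between 2.35% in control and 5.18% under cantharidin. These spots share 1 RNA sample each and are not replicates of the treatment.

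MMP9, gelatinase B, also had 10 spots. Its intensity was 132 in control, 260 in cantharidin and 844 in okadaic acid cells. The spots covered 117 to 144 in control, 246 to 280 under cantharidin and 796 to 907 under okadaic acid, again without overlap. MMP9 was therefore highest under okadaic acid, at 5.35-fold above control (2.42 ± 0.05), with 2.17-fold under cantharidin (1.12 ± 0.06). Over the settings tried, the log2 difference under okadaic acid ran from 1.81 to 2.73. This order of the agents was opposite to that of MMP1.

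**Figure D2:**
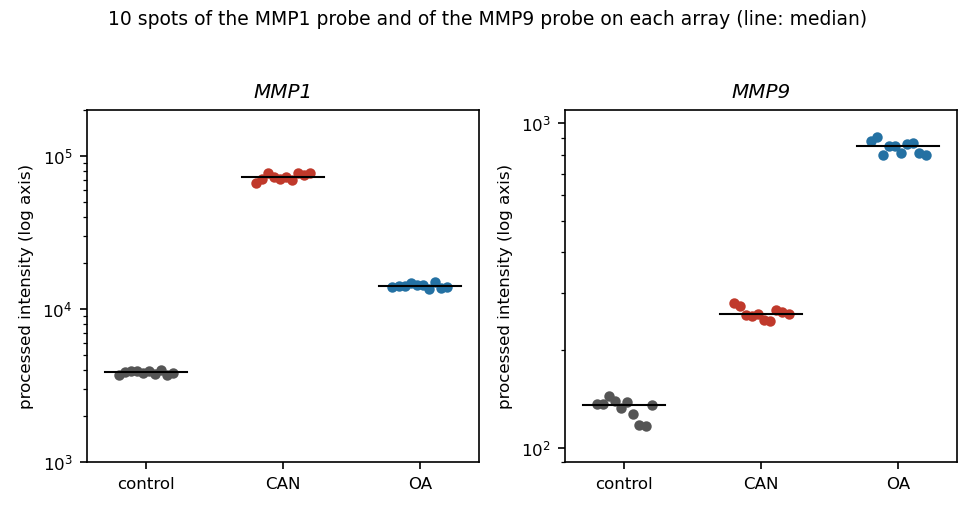
Processed intensity (log axis) of the 10 spots of the MMP1 probe and of the MMP9 probe on the control, cantharidin (CAN) and okadaic acid (OA) arrays, with a line at the median. MMP1 was highest under cantharidin (66947 to 78082) and MMP9 under okadaic acid (796 to 907), and the spots of the 3 arrays did not overlap for either gene.

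MMP10, stromelysin-2, went from 29.8 in control cells, not well above background, to 2084 under cantharidin and 2078 under okadaic acid. Because the control signal was dim, the fold is a bound against the floor of the control array, at least 65.5-fold for cantharidin and at least 49.7-fold for okadaic acid. The treated arrays differed by 1.32-fold after scaling (-0.40 ± 0.16 for okadaic acid against cantharidin). The normexp background correction gave log2 differences from control of 4.40 and 3.99, which are below these bounds. MMP3, stromelysin-1, was measured at 10.5 in control cells, also not well above background, 141 under cantharidin and 685 under okadaic acid. Its signal was above control by at least 4.44-fold with cantharidin and at least 16.4-fold with okadaic acid, and normexp again gave less, with log2 differences of 1.31 and 2.72. MMP13, collagenase-3, was well above background under okadaic acid alone among the 3 arrays, with an intensity of 128 against 7.35 in control and 10.8 in cantharidin cells. Its signal under okadaic acid was at least 3.05-fold above control (log2 difference 1.095 with normexp, also below this bound), and no fold is given under cantharidin, where both signals were below background.

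MMP7, matrilysin, lay close to the floor throughout. Its intensity was 51.2 in control cells, 1.46 times the floor of that array, and 18.5 and 60.2 with cantharidin and okadaic acid, both indistinct from background. The signal was at least 2.12-fold lower under cantharidin, but the normexp background correction gave a log2 difference of -0.23 and ended this call. Under okadaic acid the measured difference was -0.02 ± 0.40.

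MMP2, gelatinase A, was the secreted member that differed least from control among those measured on all 3 arrays. Its intensity was 1121 in control, 883 in cantharidin and 1055 in okadaic acid cells. The log2 differences of -0.21 ± 0.14 and -0.34 ± 0.10 stayed under 1.5-fold in each of the settings tried. The membrane-type enzymes were at or below their control signal, apart from MMP14 under cantharidin, and from MMP14 and MMP15 under okadaic acid where arrays were not scaled (0.17 and 0.04). MMP14, an activator of the MMP2 precursor, was dim at 57.1, 66.2 and 64.1, with differences of 0.35 ± 0.37 and -0.09 ± 0.38. Its signal under okadaic acid was 1.11 times the floor, which leaves little room to measure a lower value.

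MMP15 separated the agents. Its intensity was 722 in control, 296 in cantharidin and 744 in okadaic acid cells, which amounted to a signal lower by 2.22-fold with cantharidin (-1.15 ± 0.14) but by 1.16-fold with okadaic acid (-0.21 ± 0.10). MMP24, found mainly in the nervous system, was lower under both agents, with 238, 78.7 and 92.5. The signal was lower by 2.75-fold with cantharidin (-1.46 ± 0.29) and by 3.07-fold with okadaic acid (-1.62 ± 0.27), and these differences stayed past 1.5-fold in each setting tried, between -1.72 and -0.78 for cantharidin and between -2.13 and -0.93 for okadaic acid.

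**Figure D3:**
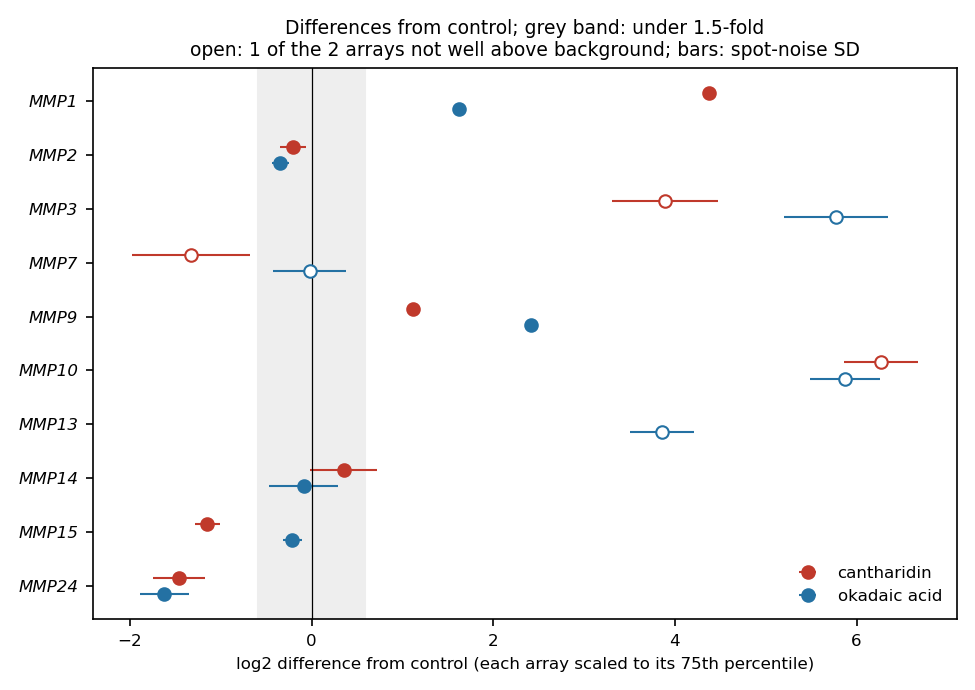
Log2 difference from control of each member under cantharidin and okadaic acid, with bars for the spot-noise SD, open points where 1 of the arrays was not well above background, and a grey band for differences under 1.5-fold. MMP1, MMP3, MMP9 and MMP10 lie to the right of the band under both agents and MMP24 to the left, while MMP2 and MMP14 stay inside it.

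Compared directly at the same labelled dose and time, MMP1 had the widest gap among the members well above background with both agents. Okadaic acid gave a signal 6.77-fold lower than cantharidin for MMP1 (-2.76 ± 0.03), a difference that ranked at position 105 from the lowest among 14604 genes measured on both arrays. MMP3 was 3.69-fold higher under okadaic acid (1.88 ± 0.16), MMP9 2.47-fold higher (1.30 ± 0.04), MMP15 1.91-fold higher (0.94 ± 0.15) and MMP13 at least 4.44-fold higher. In all, 4 of 9 members were higher by 1.5-fold or more and 1 lower, against 29.5% and 22.3% of 16200 genes. MMP13 entered this count only through the okadaic acid array, on which it was high. Among the 6 members well above background on all 3 arrays, 2 were higher and 1 lower, but the shares over all genes were not counted with this restriction. MMP2, MMP10, MMP14 and MMP24 differed by less than 1.5-fold, but without replicates this does not show that the compounds act alike on them. MMP14 was 1.36-fold lower under okadaic acid (-0.44 ± 0.39) and passed 1.5-fold under median scaling (-0.59), quantile normalization (-0.65) and in the deposited normalized table (-0.77).

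The position of the genes was considered next. MMP1, MMP3, MMP7, MMP10 and MMP13 lie on chromosome 11, MMP2 and MMP15 on chromosome 16, MMP9 and MMP24 on chromosome 20 and MMP14 on chromosome 14. The 9 protein-coding genes from MMP7 to MMP13 in the RefSeq annotation are all matrix metalloproteinases, in the order MMP7, MMP20, MMP27, MMP8, MMP10, MMP1, MMP3, MMP12 and MMP13. MMP10, MMP1 and MMP3, which stand next to each other, were the genes of this row at least 1.5-fold higher under cantharidin. Under okadaic acid MMP13 was added to them, but it could not be compared under cantharidin. MMP10, MMP3 and MMP13 were not well above background in control cells. They could be compared with control only through treated arrays on which they were high. MMP7, at the other end of the row, was at least 2.12-fold lower under cantharidin, with signals close to the floor. MMP12, which lies between MMP3 and MMP13, was at background in all 3 groups, as did MMP20 and MMP27. MMP8, the neutrophil collagenase and neighbour of MMP10, had intensities of 49.9, 48.6 and 75.9 and stayed within 1.5-fold of control with either agent. These neighbours have related sequences, and whether their probes took up each other's transcripts was not tested.

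**Figure D4:**
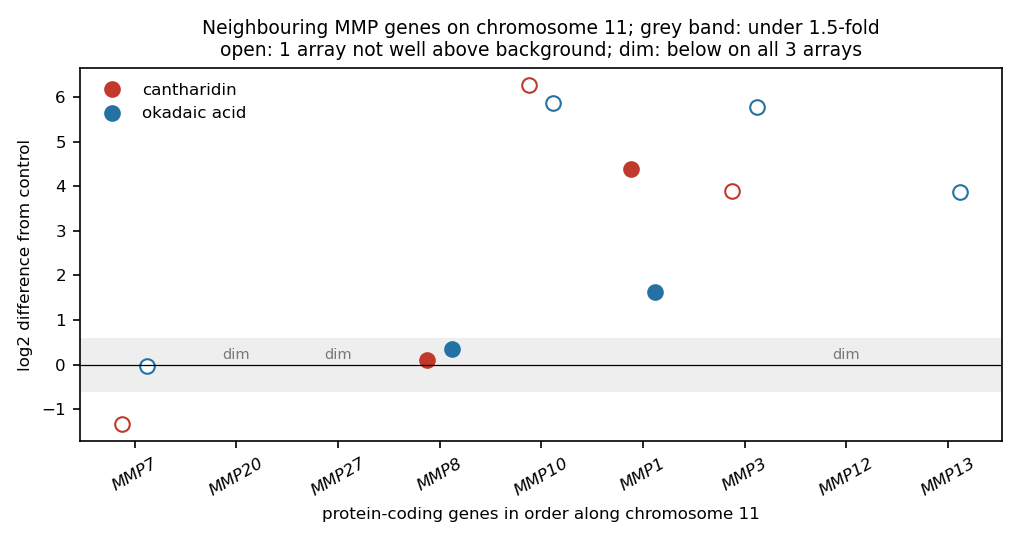
Log2 difference from control under cantharidin and okadaic acid for the 9 neighbouring matrix metalloproteinase genes, in order along chromosome 11 and not to distance, with open points where 1 array was not well above background and "dim" where none was. The high values sit at MMP10, MMP1 and MMP3 under both agents and at MMP13 under okadaic acid, whereas MMP8 lies in the grey band of differences under 1.5-fold. MMP10, MMP3 and MMP13 were not well above background in control cells. MMP7 lies below the band under cantharidin.

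The family has 13 further genes on the arrays. Of these, 8 could be compared in each case, with 2 at least 1.5-fold higher and 4 lower under cantharidin and 1 higher and 3 lower under okadaic acid. The shares over all genes were 27.5% higher and 34.1% lower for cantharidin and 28.1% and 28.8% for okadaic acid, so the 2 of 8 higher under cantharidin lay near the background. Their median log2 differences were -0.26 and -0.35. MMP11, stromelysin-3, had intensities of 177, 32.0 and 106, and was lower by 5.05-fold with cantharidin and 2.00-fold with okadaic acid. Its cantharidin signal was only 1.46 times the floor, and the log2 difference with cantharidin ran from -2.68 to -1.18 over the settings. MMP17, an enzyme anchored in the membrane by a lipid, had 4648, 1056 and 2368, lower by more than 1.5-fold with both agents (2.34-fold with okadaic acid). MMP23B was higher under both agents, with 58.8, 159 and 194 (2.97-fold and 2.76-fold). MMP25 depended on the probe. Its brighter probe gave 566, 1236 and 330, thus 2.40-fold higher and 2.05-fold lower, whereas its other probe gave log2 differences of -0.02 and 0.21.

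Inhibitors were taken from a list of 12 genes, which included the 4 TIMPs. TIMP1 had intensities of 16052, 117314 and 66084, so it was above control by 8.04-fold with cantharidin and 3.45-fold with okadaic acid. TIMP2 differed by 1.06-fold and 1.02-fold, and TIMP3 lay near the floor with 57.0, 57.4 and 48.4. TIMP4 was well above background under cantharidin alone, at least 4.96-fold above control. RECK, a membrane protein that restrains several members, had intensities of 755, 61.0 and 77.5 and was 11.2-fold and 11.6-fold lower. Its second probe moved the same way, with log2 differences of -4.22 and -3.14. SERPINE2, which inhibits serine proteases, was 5.38-fold and 4.84-fold higher, and the proteoglycan SPOCK1 was lower by 3.24-fold with cantharidin and by 1.27-fold with okadaic acid. Of the 11 inhibitors compared under cantharidin, 4 were higher and 3 lower, and of 9 under okadaic acid, 2 were higher and 2 lower, beside the same shares over all genes as above. SPOCK2 depended on the probe. It was within 1.5-fold on its brightest probe, with log2 differences of -0.45 and -0.24, whereas its other probe gave 4.84 and 4.61.

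Activators and inducers of the enzymes lay in both directions from control. Of 15 compared under cantharidin, 5 were at least 1.5-fold higher and 4 lower, and of 16 under okadaic acid, 6 were higher and 3 lower, with medians of 0.17 and 0.13. Over all genes, 27.5% and 28.1% were higher and 34.1% and 28.8% lower. PLAUR, the receptor of the plasminogen activator urokinase, had intensities of 599.6, 2951 and 4248, or 5.42-fold and 5.94-fold above control. SPP1, the matrix protein osteopontin, had 89.1, 197 and 377, or 2.43-fold and 3.55-fold. The shedding protease ADAM17, with 212, 635 and 397, was 3.29-fold and 1.57-fold higher. The tight junction protein CLDN1 had intensities of 146, 531 and 249, past 1.5-fold with cantharidin and 1.43-fold higher with okadaic acid. These genes were taken from those well above background on all 3 arrays, which leaves out genes that fell below background. At least 1.5-fold lower were PLAT, FURIN, BSG and KLK1 under cantharidin, and FURIN, PCSK6 and CTSB under okadaic acid. FURIN was 2.74-fold lower with cantharidin and at least 5.61-fold lower with okadaic acid. PLAT was at least 13.8-fold lower with cantharidin and 1.38-fold lower with okadaic acid.

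Factors that are known to bind promoters of this family were set beside the members. Their list was chosen with earlier results of these data known. Of 19 compared under cantharidin, 9 were at least 1.5-fold higher and 1 lower, and of 18 under okadaic acid, 10 were higher and 2 lower, with medians of 0.32 and 0.70. Of all genes compared, 27.5% were higher and 34.1% lower for cantharidin, and 28.1% and 28.8% for okadaic acid. FOS, an AP-1 subunit, had intensities of 3434, 8879 and 72510, so it was above control by 2.85-fold with cantharidin and 17.7-fold with okadaic acid. FOSB, another subunit, was 15.7-fold and 16.4-fold above control. ATF3, a stress-induced partner of AP-1 proteins, was 84.9-fold and 12.8-fold above control on its brightest probe, while its 4 probes ranged from -0.15 to 6.41 and from -0.47 to 3.67 in log2 difference. ELF3, an epithelial ETS factor, was lower by 9.82-fold with cantharidin but higher by 1.67-fold with okadaic acid. NFKB1, RELA, RELB and REL were at least 1.5-fold higher with both agents. The AP-1 subunits JUN, JUNB and JUND stayed within 1.5-fold of control with either agent. The part of any of these factors in the values of the members was not tested.

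Finally, genes with a response most like that of MMP1, the member with the largest difference measured on all 3 arrays, were looked for among 14222 genes well above background on every array. Likeness was the Euclidean distance between the pairs of log2 differences from control, over these 3 arrays. The nearest were BDKRB2, REM2, SPRR2A, HOXB9 and ZFC3H1, at distances of 0.09 to 0.23. BDKRB2, the bradykinin B2 receptor, showed 4.47 under cantharidin and 1.59 under okadaic acid, and SPRR2A, a protein of the cornified envelope, 4.36 and 1.46. With 2 differences per gene, many genes lie near any given gene, so this is a description only.

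**Figure D5:**
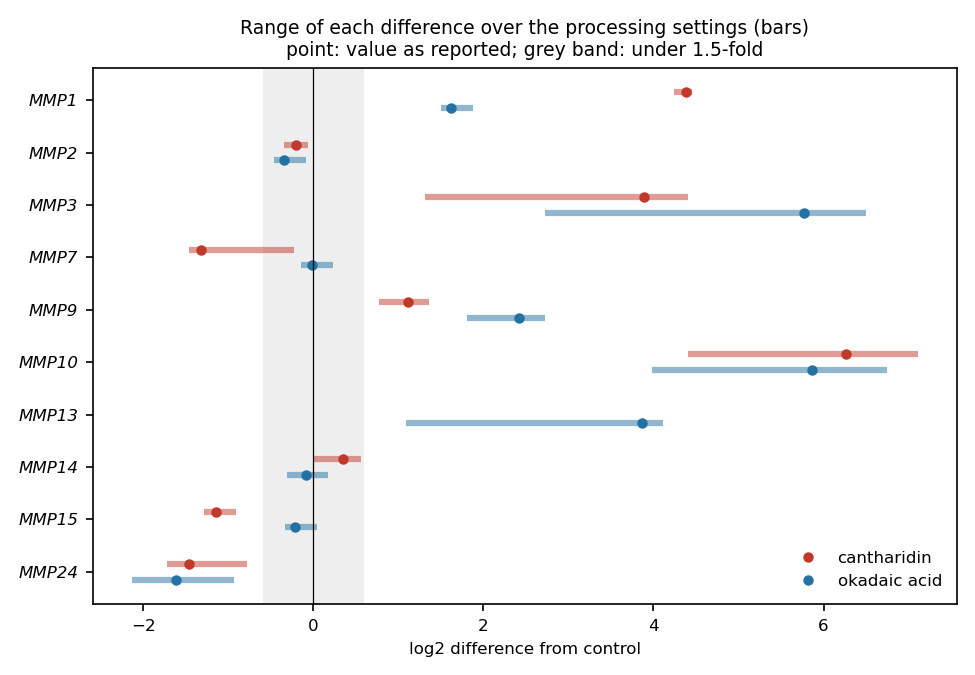
Lowest to highest log2 difference from control over the processing settings for each member (bars), with the reported value as a point and a grey band for differences under 1.5-fold. The bar of MMP1 under cantharidin is narrow (4.24 to 4.45), those of MMP3, MMP10 and MMP13, dim in control cells, are wide, and only the bar of MMP7 under cantharidin crosses into the band from outside.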

How the data were processed

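Expression in 3 samples was read on Agilent 1-colour arrays. The authors deposited scanner output of Feature Extraction 11.0.1.1, with an intensity per spot from which the background had been subtracted and spatial trends removed within an array, without scaling between arrays. Per the file headers, probes were annotated on hg19. The scanner's flags for saturation, outliers and detection above background came with it. The authors deposited normalized log2 values for most probes as well, by a method not given in the sources used here.

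Log2 intensity was averaged over the spots of a probe without outlier flags, and each array's 75th percentile was subtracted (intensities of 784, 713 and 936 for control, cantharidin and okadaic acid). A gene was represented by its brightest probe and compared when this probe was flagged as well above background on 1 or both arrays. Where it was not on 1 array, the fold was bounded against that array's floor, or the dim signal where it was higher. RefSeq transcripts of GRCh38.p14 named 25705 of 34041 probes. Spot noise was averaged over the 50 probes with replicate spots nearest in brightness and divided by the root of the number of spots. No pseudocount was used.

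The members, lists and promoter motifs were chosen with earlier results of these data known. Named context genes were first the TIMPs and, per list, at most 4 genes well above background on all 3 arrays with the largest difference from control. Other genes were named to show what this rule left out. No probe matched NFKB2, which was left out. The 12 alternatives were normexp with an offset of 50 on median spot and background intensity, other scalings (median, percentile of probes detected on all arrays, quantile, none), no or a stricter filter, the deposited table, a 2-fold threshold, the median over probes, dim signals at the floor, and centring within 16 blocks. The calling step was tested on simulated data. The software was Python 3.11.15 (pandas 2.3.3, numpy 2.4.6) and, for normexp and quantile normalization, limma 3.58.1 in R 4.3.3. The number of arrays limits the precision.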

Additional observations from a re-analysis of the deposited data

Results flagged for a closer look

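A pair of genes outside the 10 members lay past 1.5-fold in opposite directions under the agents, and the difference between the agents was not tested, since there was 1 array per group. MMP25 gave log2 differences of 1.26 under cantharidin and -1.04 under okadaic acid on its brighter probe. Its other probe gave -0.02 and 0.21, and the value of the gene under okadaic acid was -0.41 with the median over both probes. ELF3, with a single probe, gave -3.30 under cantharidin and 0.74 under okadaic acid. Over the settings tried it ranged from -3.71 to -2.34 and from 0.62 to 0.99.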

How the results depend on the processing

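Of 105 values of the counts and medians of members under the alternatives, 95 stayed near the reported value. Each member had 1 probe, so the median over probes could not move any of them. Requiring detection above background on each of the 3 arrays leaves out MMP3, MMP7, MMP10 and MMP13, and gave 2 members at least 1.5-fold higher in each comparison, in place of 4 for cantharidin, 5 for okadaic acid and 4 for okadaic acid against cantharidin. With this requirement 2, 1 and 1 members were at least 1.5-fold lower in these comparisons. Shares over all genes were not counted under it, so these counts have no background beside them. The requirement also turned the median under okadaic acid from 0.80 to -0.15, where the median over all genes was 0.04. The normexp background correction moved the median under cantharidin from 0.35 to 0.011. For okadaic acid against cantharidin, the median of -0.14 became 0.26 without scaling and 0.40 without a filter, and 2 members were lower instead of 1 under median scaling, quantile normalization and in the deposited table. Of 298 values of single members, none of a member past 1.5-fold changed sign. Some of these values were fixed in advance. The median over probes could not alter a member with 1 probe, and the filters change only which members are compared. Among differences under 1.5-fold, 6 values changed sign. Without scaling these were okadaic acid against control for MMP7 (0.24), MMP14 (0.17) and MMP15 (0.04), and okadaic acid against cantharidin for MMP2 (0.26) and MMP24 (0.23). MMP7 under okadaic acid was also 0.06 with the percentile over probes detected on all arrays. The log2 difference of MMP10 under cantharidin ran from 4.40 with normexp to 7.11 in the deposited table, and that of MMP3 under okadaic acid from 2.72 to 6.49 in the same settings. The cause was not tested. Each group had 1 array, so no array could be left out.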

Other observations

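A list of matrix proteins and adhesion receptors that meet these enzymes was also compared. Of 15 such genes under cantharidin, 3 were at least 1.5-fold higher and 10 lower, and of 15 under okadaic acid, 2 were higher and 10 lower, with median log2 differences of -1.21 and -0.66. Over all genes, 34.1% were lower under cantharidin and 28.8% under okadaic acid. This list, too, was chosen with earlier results of these data known. ITGB1, the β1 integrin chain, had an intensity of 6998 in control, 2553 in cantharidin and 1449 in okadaic acid cells, and was 2.49-fold and 5.76-fold lower. CD44, a hyaluronan receptor, was 2.31-fold and 5.10-fold lower, and the proteoglycan SDC1 5.48-fold and 2.30-fold lower. LAMB3, a chain of laminin-332, went the other way, with 371, 1283 and 2151 or 3.81-fold and 4.86-fold higher. These directions held in each setting tried.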
